A study of Mus musculus with 9 samples.

Results

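Mitochondrial ribosomal proteins, the nuclear-encoded proteins of the ribosome that works inside mitochondria, were followed in mouse bone marrow stromal cells during osteoblastic induction. The genes were chosen by symbol: every probe set with a single annotated gene named Mrpl or Mrps followed by a number was taken, and the probe sets of a gene were averaged. This gave 80 probe sets and 71 genes (43 Mrpl and 28 Mrps) among the 22180 genes measured, and no filter on low values was applied. Mrpl30, Mrpl33, Mrpl41, Mrpl43, Mrpl44, Mrpl53 and Mrps6 were on probe sets shared with other genes and were not analysed here, which leaves 71 of the 78 RefSeq protein-coding genes with such names.

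Mitochondria translate a handful of proteins, all of them core subunits of the respiratory chain and ATP synthase, from messages of their own genome. Their ribosome has a small subunit, which holds the message and decodes it, and a large subunit, which joins amino acids and feeds the new chain through an exit tunnel to the inner membrane. The ribosomal RNAs come from mitochondrial DNA, while each protein is encoded in the nucleus, made in the cytosol and imported. Some of these proteins have a counterpart in the bacterial ribosome, and others are found only in mitochondria. In bone, matrix-secreting osteoblasts are known to draw on both glycolysis and oxidative metabolism.

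The cells were MSC2, a clone of mesenchymal stromal cells from marrow of C57BL/6 mice that were 6 weeks old, so all 9 samples share a single clone. Total RNA was hybridised from undifferentiated cells kept in alpha-MEM lacking ascorbic acid, from cells induced for 14 days and from cells induced for 28 days, with 3 arrays in each group. Induction began at confluence in DMEM with 10 mM beta-glycerophosphate, 0.2 mM ascorbate phosphate, 0.1 µM dexamethasone and pyruvate at 1 mM, and both media held 10% serum. Medium, confluence and time in culture differ along with induction and cannot be told apart from it, because the samples used here include no culture kept uninduced for as long. The series text calls the arrays of a group independent replicates without saying whether they were separate cultures, so p-values measure the spread between these samples.

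Values are deposited log2 signals in which the median of each probe set over the 9 arrays is 0. They therefore compare states of a gene and give no level. For the same reason the stromal label could not be checked against the level of its markers, and defining markers cannot be called absent. Genes of cell division were called lower in 14 of 14 measured members at both times (17.5% of all genes were at 14 days and 19.5% at 28 days). Their list mean per array was 1.61 to 1.62 in undifferentiated cells, -0.04 to 0.04 at 14 days and -0.70 to -0.69 at 28 days. At 28 days 3 of 8 macrophage, 5 of 7 endothelial and 1 of 6 adipocyte markers were called higher than in undifferentiated cells (20.4% of all genes were), while of 9 bone marrow stromal markers 4 were higher and 2 lower, and of 8 osteoblast markers 3 were higher and 1 was lower (19.5% of all genes were lower). The mean of the macrophage list per array was -0.64 to -0.51 in undifferentiated cells, -0.04 to 0.07 at 14 days and 0.07 to 0.13 at 28 days. That of the endothelial list was -0.58 to -0.52, 0.03 to 0.12 and 0.03 to 0.05 in the same order of states, and that of the adipocyte list -0.64 to -0.51, -0.02 to 0.02 and -0.002 to 0.06. The adipocyte mean was carried by Fabp4 (log2 difference 3.63 at 28 days), as the median difference of the list was 0.02, and the macrophage mean mainly by Cd14 and Csf1r (2.75 and 2.10), with a median of 0.045. The part of cell division or of other cell types in the results below was not tested. In RNA from whole cultures, fewer cells of a type and less RNA per cell cannot be told apart.

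Most mitochondrial ribosomal protein genes moved little, and those that moved were mainly lower after induction. Calls rest on limma's test, with p-values adjusted by the Benjamini-Hochberg method over all 22180 genes and a threshold of 0.05. At 14 days 26 of the 71 genes were called lower than in undifferentiated cells (36.6%, against 17.5% of all genes) and 6 higher (8.45%, against 18.2%), while 35.7% of all genes were called in either direction. At 28 days 36 were lower (50.7%, against 19.5% of all genes) and 6 higher (8.45%, against 20.4%), with 39.9% of all genes called. The median log2 difference of the 71 genes was -0.12 at 14 days and -0.16 at 28 days, and that of all genes was 0.005 and 0.02. Of the 71 genes, 25 were called lower at both times, 5 were called higher at both, and 27 were called at neither time. None was called in opposite directions. Both comparisons use the same undifferentiated arrays, so their calls are not independent of each other. The shares of all genes with these patterns over both times were not counted, so the pattern counts have no background.

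**Figure D1:**
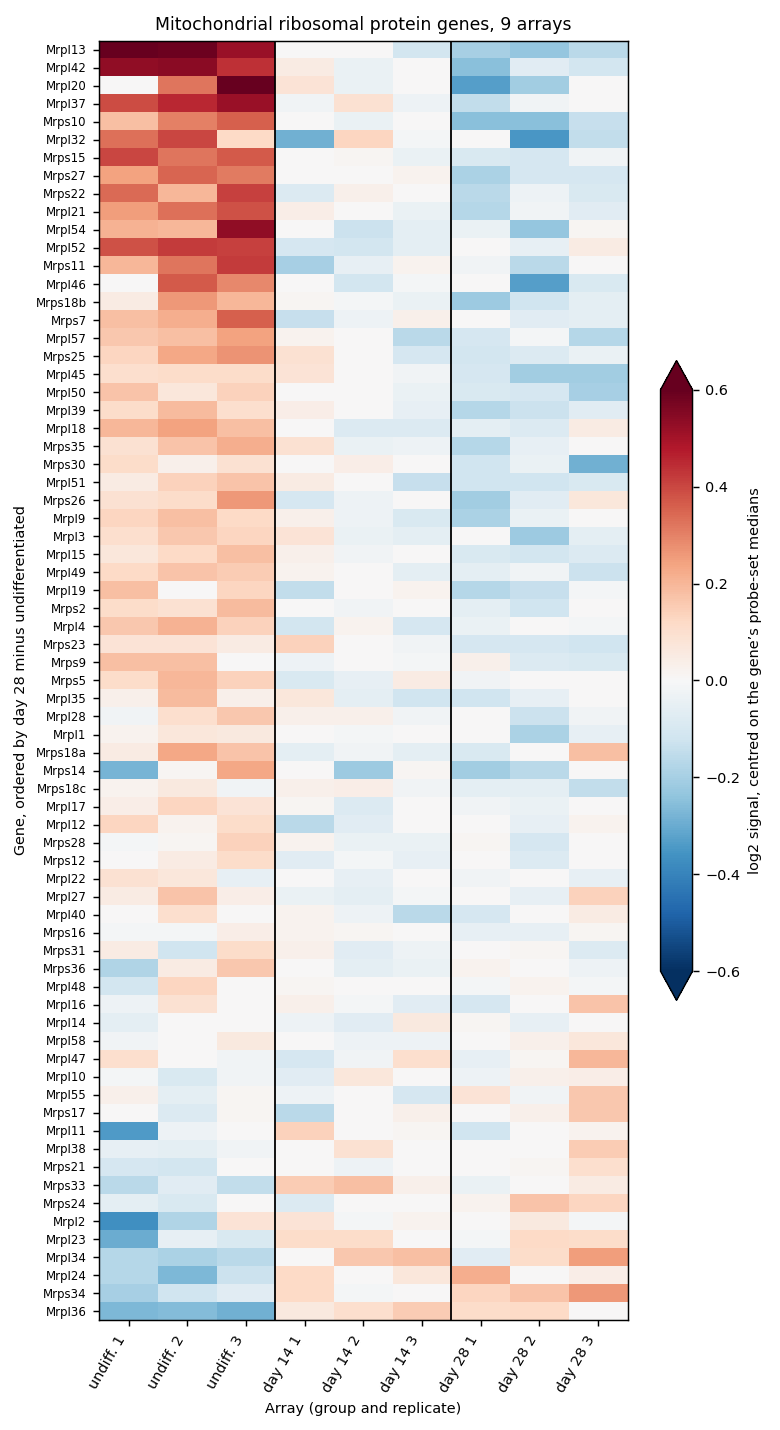
Centred log2 signal of the 71 mitochondrial ribosomal protein genes (rows, ordered by day 28 minus undifferentiated) on the 9 arrays (columns, 3 per state, undifferentiated to day 28). Colours run from blue (below the gene's median) to red (above it) and are full at 0.6 in either direction. The upper rows are mostly red in the 3 undifferentiated columns and the lowest rows are blue there, while the induced columns lie near 0 or on the opposite side.

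The number of calls depended on the scaling. After quantile normalization again, which gives all 9 arrays the same distribution of centred values, 7 of the 71 genes were called lower at 14 days, a smaller share than the 11% of all genes. At 28 days 17 were called lower, a larger share than the 13.5% of all genes. The excess of lower calls at 14 days was thus not seen under this scaling. Genes of the set called higher numbered 2 at each time, a smaller share than the 12.4% and 12% of all genes. The median differences of the 71 genes were then -0.11 and -0.14, against -0.006 and 0.01 for all genes. The median signal of the 71 genes per array was 0.05, 0.11 and 0.12 in undifferentiated cells, 0.00, -0.01 and -0.01 at 14 days and -0.05, -0.05 and -0.003 at 28 days. All 3 undifferentiated arrays were thus higher than any induced array. The median SD within a group was 0.06, 0.05 and 0.07 for these genes in undifferentiated, 14-day and 28-day cells, and 0.06, 0.05 and 0.07 for all genes.

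Promoter sequence is shown for the genes with the largest called changes at 28 days that have an entry in the RefSeq promoter table (GRCm38.p6), 3 lower and 3 higher, since several regulators measured in these cells bind motifs of this kind. Each line gives the 150 bases before the transcription start, 5′ to 3′ on the strand of the gene, with motif matches in capitals. The windows lie at chr10:95501950-95502099 (minus strand, Mrpl42), chr4:155802728-155802877 (plus strand, Mrpl20), chr4:107066867-107067016 (minus strand, Mrpl37), chr13:73330859-73331008 (plus strand, Mrpl36), chr3:87919394-87919543 (plus strand, Mrpl24) and chr8:71464776-71464925 (plus strand, Mrpl34). The first 3 genes were lower after induction.
Mrpl42: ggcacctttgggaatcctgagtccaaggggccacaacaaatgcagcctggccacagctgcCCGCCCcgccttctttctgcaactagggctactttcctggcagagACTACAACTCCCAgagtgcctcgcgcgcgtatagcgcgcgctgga
Mrpl20: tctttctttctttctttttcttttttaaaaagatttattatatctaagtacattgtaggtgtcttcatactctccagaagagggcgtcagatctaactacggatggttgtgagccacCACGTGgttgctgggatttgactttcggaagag
Mrpl37: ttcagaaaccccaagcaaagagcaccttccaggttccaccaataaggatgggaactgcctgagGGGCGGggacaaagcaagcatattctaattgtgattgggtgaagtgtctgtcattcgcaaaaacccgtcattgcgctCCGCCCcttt
The other 3 were higher after induction.
Mrpl36: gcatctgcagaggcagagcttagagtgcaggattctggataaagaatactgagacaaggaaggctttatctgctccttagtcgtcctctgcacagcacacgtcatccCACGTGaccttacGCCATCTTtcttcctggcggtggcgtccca
Mrpl24: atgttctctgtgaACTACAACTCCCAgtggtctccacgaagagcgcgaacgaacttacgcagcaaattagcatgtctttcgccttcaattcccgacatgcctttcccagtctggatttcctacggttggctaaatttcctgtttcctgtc
Mrpl34: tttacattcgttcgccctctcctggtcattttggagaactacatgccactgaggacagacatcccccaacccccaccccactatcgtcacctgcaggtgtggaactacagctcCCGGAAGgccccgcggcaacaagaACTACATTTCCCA
Capitals mark the long motif named for THAP11 and ZNF143 in Mrpl42, Mrpl24 and Mrpl34, the E-box bound by MYC (CACGTG) in Mrpl20 and Mrpl36, and the GC box of SP1 (GGGCGG or its reverse) in Mrpl42 and Mrpl37. They also mark the ETS motif bound by GABP (CCGGAAG) in Mrpl34 and the YY1 motif (AAGATGGC, here reversed) in Mrpl36. A match is a run of letters and no measured binding site. Matches outside the printed bases are not shown, such as the YY1 motif after the start of Mrpl42 and of Mrpl37.

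Of the 71 genes, 62 had an entry. Mrpl13, Mrpl15, Mrpl19, Mrpl38, Mrpl4, Mrpl54, Mrps28, Mrps34 and Mrps35 had none. Matches were sought over whole windows of 300 bases (250 before and 50 after the start, both strands). Each motif was counted by itself whether or not another overlaps it. A gene counted if any of its windows matched (68 windows for the 62 genes and 20611 for all 16990 measured genes with an entry). The ETS motif was found in 23 of 62 genes (37.1%), against 12.7% of the 16990 genes. The YY1 motif was found in 12 (19.4%, against 3.64%) and the NRF1 motif (GCATGCGC) in 7 (11.3%, against 4.06%). The GC box (51.6%, against 49.5%) and the E-box (8.06%, against 9.19%) were about as frequent as elsewhere. The ETS motif was present in 11 of 30 genes lower at 28 days, in 1 of 5 genes higher and in 11 of 27 genes not called. In the same order the YY1 motif was present in 7 of 30, 2 of 5 and 3 of 27. The NRF1 motif was present in 4 of 30, 0 of 5 and 3 of 27. The motif of THAP11 and ZNF143 was added to the search after the sequences had been seen. It was present in 3 of 30 lower, 2 of 5 higher and 0 of 27 uncalled genes, and in 2.43% of the 16990 genes. Mrpl42, Mrpl24 and Mrpl34, whose printed sequences carry it, are counted here. These counts are therefore not independent of how the motif was found, and no conclusion is drawn from them.

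After 14 days the 4 largest falls were in large-subunit proteins. Mrpl13, a large-subunit protein with a bacterial counterpart, had signals of 0.00, 0.00 and -0.11 at 14 days, against 0.62, 0.59 and 0.52 in undifferentiated cells. The groups lay far apart, and signal at 14 days was 65.5% of that in undifferentiated cells (log2 difference -0.61, SE 0.048, limma adjusted p = 2.38e-06). It was the only called gene lower by at least 1.5-fold at this time. Mrpl42, found only in mitochondrial ribosomes, had 0.05, -0.04 and 0.00 at 14 days, against 0.53, 0.54 and 0.44, a log2 difference of -0.50 (SE 0.055, limma adjusted p = 3.61e-05). Mrpl52, also without a bacterial counterpart, had -0.10, -0.11 and -0.06 at 14 days, against 0.38, 0.42 and 0.41 (difference -0.49, limma adjusted p = 3.76e-06). Its 3 arrays at 14 days lay close together, and its difference at 28 days was smaller (-0.40, 1.49e-05).

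Mrpl37, a relative of Mrps30 that is specific to mitochondria, was lower by 0.45 on the log2 scale at 14 days (SE 0.058, limma adjusted p = 0.000113). Mrps15, a small-subunit protein that binds ribosomal RNA in bacteria, had 0.00, 0.01 and -0.04 at 14 days, against 0.40, 0.32 and 0.37, and a difference of -0.38 (SE 0.042, limma adjusted p = 4.12e-05). Mrps11, which lies in the platform of the small subunit, differed by -0.39 (limma adjusted p = 0.00162) and Mrpl54 by -0.37 (0.00982). The 14-day calls of Mrpl37, Mrps11 and Mrpl54 were lost after quantile normalization again (limma adjusted p = 0.0603, 0.063 and 0.0656). Mrpl32, whose maturation by the m-AAA protease precedes ribosome assembly, had -0.29, 0.13 and -0.01 at 14 days, against 0.33, 0.40 and 0.12, so its groups overlapped. Its difference of -0.34 had a limma adjusted p of 0.0497, and the call was lost without undifferentiated array 1 or 2 (0.132 and 0.158), without 14-day array 1 or 3 (0.182 and 0.0846) or without 28-day array 3 (0.0692).

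Genes higher at 14 days were Mrpl36, Mrpl34, Mrpl24, Mrps33, Mrpl23 and Mrps34. Mrpl36, the smallest large-subunit protein in bacteria and a zinc-binding one there, had 0.06, 0.10 and 0.15 at 14 days, against -0.27, -0.26 and -0.29 in undifferentiated cells. It was 1.30-fold higher (log2 difference 0.38, SE 0.046, limma adjusted p = 8.07e-05), with no overlap. Mrpl34 (0.29, limma adjusted p = 0.014) and Mrpl24 (0.26, 0.0109), both with bacterial counterparts in the large subunit, and Mrps33, a small-subunit protein specific to mitochondria (0.25, 0.00331), followed. Mrpl23, which in bacteria sits at the mouth of the exit tunnel, was 0.22 higher (0.0308). Mrps34, required in mice for a stable small subunit, had 0.12, -0.01 and 0.00 at 14 days, against -0.20, -0.12 and -0.07, a difference of 0.16 (0.0401). After quantile normalization again the 14-day calls of Mrpl34, Mrpl24, Mrpl23 and Mrps34 were lost (limma adjusted p = 0.0716, 0.126, 0.0691 and 0.268). The call of Mrpl34 was lost without 14-day array 2 or 3 (adjusted p = 0.0542 and 0.0574), that of Mrpl23 without undifferentiated array 1 or 14-day array 1 or 2 (0.0953, 0.0974 and 0.0985), and that of Mrps34 without undifferentiated array 1 or 2, 14-day array 1 or 3 or 28-day array 2 (0.139, 0.0819, 0.147, 0.0607 and 0.055).

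Leaving out 14-day array 3 lowered the count of falls at 14 days to 17 of the 71 genes (15.7% of all genes were then lower). Arrays of the groups did not overlap in 36 genes lower at 14 days and 7 higher (21.9% and 22.9% of all genes did so). No gene of the set was called in a test against a 1.5-fold change at 14 days (limma's treat), and 0 passed it at an unadjusted p under 0.05.

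**Figure D2:**
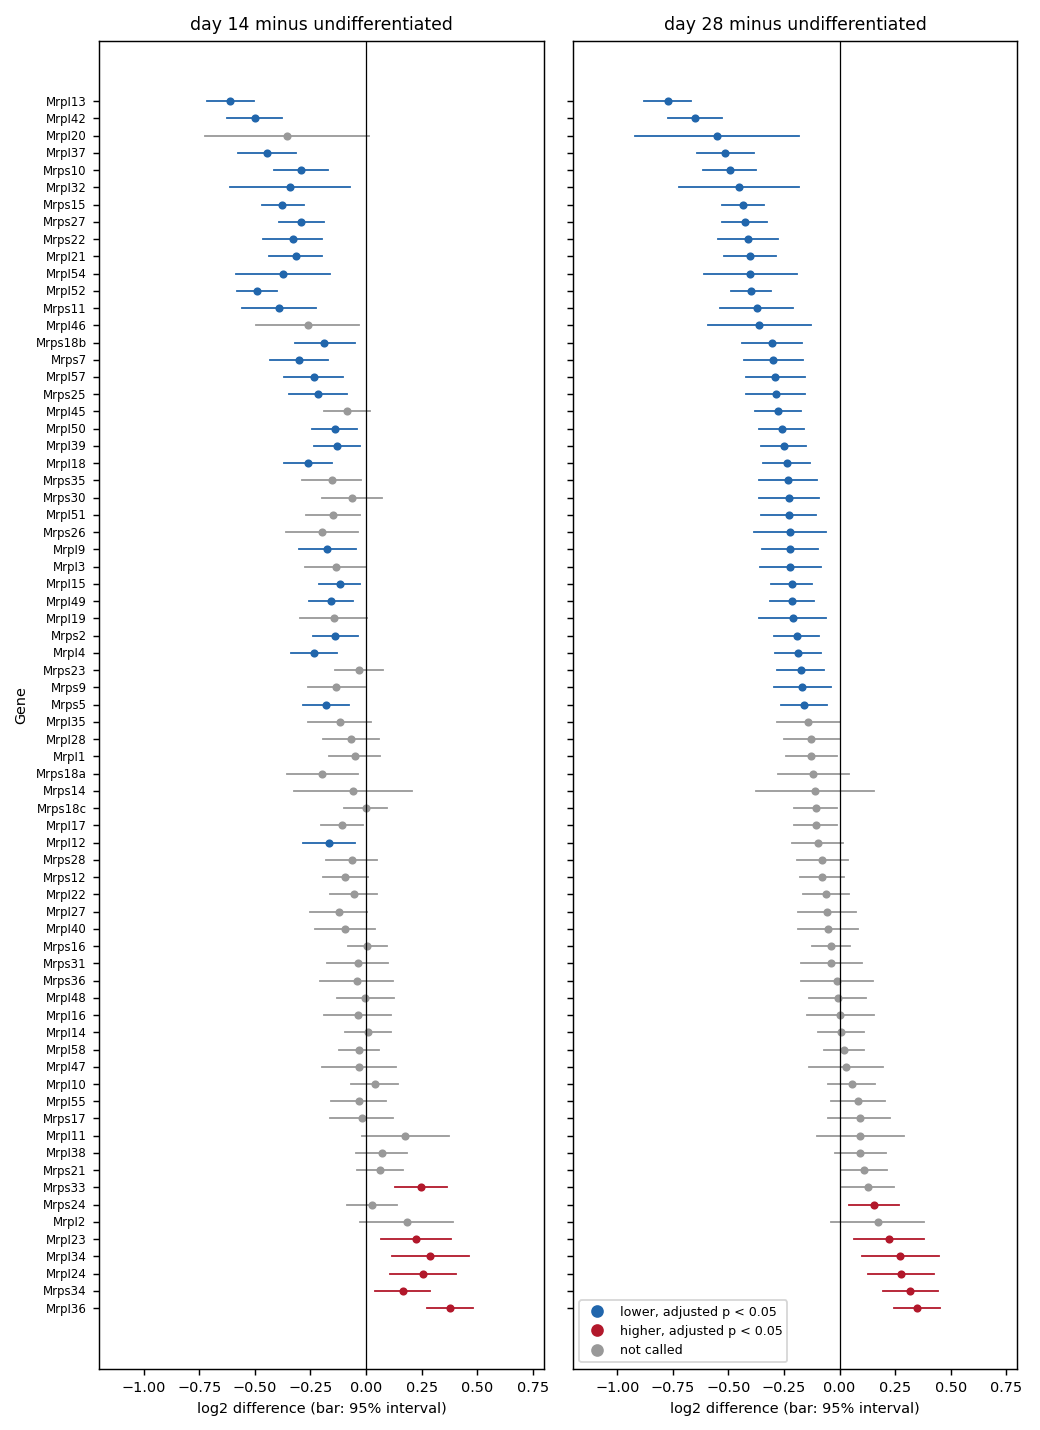
Log2 difference from undifferentiated cells at 14 days (left) and 28 days (right) for the 71 genes, in the order of the 28-day difference, with points for the estimate of the fit and bars for the 95% interval. Blue points were called lower, red points higher and grey points were not called. Mrpl13 lies at -0.61 and -0.77 at the top, Mrpl36 at 0.38 and 0.35 at the bottom, and the intervals of Mrpl20 and Mrpl32 are the widest among the genes called lower.

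At 28 days the same gene led the falls. Mrpl13 had -0.20, -0.23 and -0.16 at 28 days, against 0.62, 0.59 and 0.52 in undifferentiated cells, so that 58.5% of the signal was left (log2 difference -0.77, SE 0.048, limma adjusted p = 3.14e-07). Mrpl42 had -0.25, -0.07 and -0.11 at 28 days, against 0.53, 0.54 and 0.44, which leaves 63.7% (difference -0.65, limma adjusted p = 3.94e-06). These were the only called genes lower by at least 1.5-fold. Mrpl37 differed by -0.52 (limma adjusted p = 3.22e-05) and Mrps15 by -0.43 (1.15e-05). Mrps27, a pentatricopeptide repeat protein of the small subunit, had -0.19, -0.10 and -0.10 at 28 days, against 0.24, 0.35 and 0.31 (difference -0.43, 2.18e-05). Mrps10, in the head of the small subunit, had -0.25, -0.25 and -0.14, against 0.18, 0.30 and 0.36 (difference -0.50, 2.7e-05).

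Mrpl20 and Mrpl32 were less certain. Mrpl20, which in bacteria is needed to begin large-subunit assembly, had -0.33, -0.21 and 0.00 at 28 days, against 0.00, 0.32 and 0.80 in undifferentiated cells, whose SD of 0.40 was the widest in the set. Its difference of -0.55 had a limma adjusted p of 0.0217, and the call was lost without 28-day array 1 or 2 (0.0826 and 0.0633). At 14 days its -0.36 was not called (0.135), but without undifferentiated array 1 it was (-0.54, 0.0135). Mrpl32 differed by -0.45 at 28 days (0.0118), and its call was lost without 28-day array 2 (0.0516).

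Other genes lower at both times included Mrps22, a small-subunit protein in which human mutations cause mitochondrial disease. It had -0.16, -0.03 and -0.09 at 28 days, against 0.34, 0.20 and 0.41 (difference -0.41, limma adjusted p = 0.000238), and was lower by 0.33 on the log2 scale at 14 days (0.00128). Mrps7, which binds ribosomal RNA in the head of the small subunit in bacteria, differed by -0.30 at both times (limma adjusted p = 0.0021 at 14 days and 0.00201 at 28 days). Both calls of Mrps7 were lost after quantile normalization again (limma adjusted p = 0.0554 and 0.118). Mrpl21, Mrpl18, Mrpl57 and Mrps25 differed by -0.40, -0.24, -0.29 and -0.29 at 28 days, and the 14-day call of Mrps25 was lost without undifferentiated array 3 (0.0577) or 14-day array 3 (0.0614). Those called lower at 28 days but not at 14 days were Mrpl19, Mrpl20, Mrpl3, Mrpl45, Mrpl46, Mrpl51, Mrps23, Mrps26, Mrps30, Mrps35 and Mrps9. Without 1 array some of these calls at 28 days were lost: Mrpl19 without undifferentiated array 1 or 3 or 28-day array 1 or 2 (adjusted p = 0.0863 to 0.108), Mrpl3 without undifferentiated array 2 (0.0516), Mrpl46 without undifferentiated array 2 or 3 or 28-day array 2 (0.0657 to 0.0722), Mrps26 without undifferentiated array 3 or 28-day array 1 or 2 (0.0745 to 0.114), Mrpl20 without 28-day array 1 or 2 (0.0633 to 0.0826) and Mrps9 without any 1 of undifferentiated arrays 1 and 2, 14-day arrays 1 to 3 and 28-day arrays 2 and 3 (0.054 to 0.129). Others were called at 14 days too without 1 array: Mrpl46 and Mrpl51 without undifferentiated array 1 (0.0106 and 0.0446), Mrpl51 and Mrps35 without 14-day array 1 (0.0308 and 0.0375), Mrps9 without undifferentiated array 3 (0.0139), and Mrps26 and Mrps35 without 28-day array 1 (0.0324 and 0.0476), and Mrps26 also without 28-day array 3 (0.029). Whether these genes differ between the times is given by the direct comparison of 28 with 14 days, in which only Mrpl45 was called.

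At 28 days the higher genes were Mrpl36, Mrps34, Mrpl24, Mrpl34, Mrpl23 and Mrps24. Mrpl36 had 0.11, 0.12 and 0.00 at 28 days, against -0.27, -0.26 and -0.29, a 1.27-fold difference (log2 0.35, SE 0.046, limma adjusted p = 0.000127). Mrps34 had 0.13, 0.17 and 0.26, against -0.20, -0.12 and -0.07 (0.32, limma adjusted p = 0.00078), again without overlap. Mrpl24 was higher by 0.28 (0.00615), Mrpl34 by 0.27 (0.0168) and Mrpl23 by 0.22 (0.0297). Mrps24, which in bacteria lines the entry channel of the message, was higher by 0.15 (0.0338) and was not called at 14 days (0.03, 0.785). Mrps33 kept a positive difference of 0.13 but was not called (0.0763). After quantile normalization again the 28-day calls of Mrpl24, Mrpl34, Mrpl23 and Mrps24 were lost (limma adjusted p = 0.107, 0.264, 0.172 and 0.157).

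Some rises at 28 days depended on single arrays. Without 28-day array 3 only 3 genes were called higher (19.5% of all genes were). The call of Mrpl34 was lost without that array or undifferentiated array 2 (adjusted p = 0.0557 and 0.0508), that of Mrpl23 without undifferentiated array 1 or 28-day array 2 or 3 (0.0924, 0.0953 and 0.0834), and that of Mrps24 without undifferentiated array 1 or 2 or 28-day array 2 or 3 (0.082, 0.106, 0.114 and 0.0894). Arrays did not overlap in 38 genes lower at 28 days and 8 higher (22.4% and 24.2% of all genes did so).

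**Figure D3:**
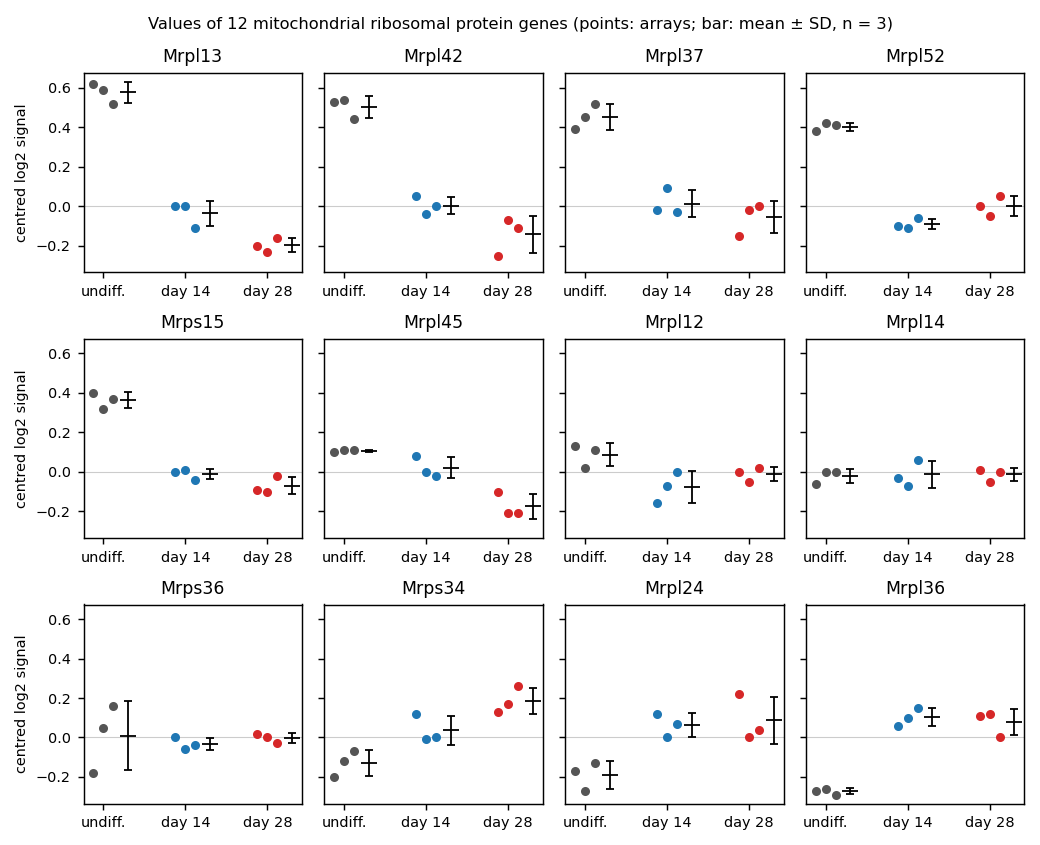
Centred log2 signal of 12 genes by state (undifferentiated, day 14, day 28), with a point per array and a bar for the mean ± SD (n = 3). Mrpl13, Mrpl42, Mrpl37, Mrpl52 and Mrps15 are high in undifferentiated cells, Mrpl36, Mrpl24 and Mrps34 are low there, Mrpl45 is lowest at day 28, and Mrpl14 and Mrps36 show no called difference.

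Between 14 and 28 days little more was called. Mrpl45 was lower at 28 days and no gene of the set was higher (4.67% and 2.72% of all genes were, and 7.39% were called in either direction). In limma, 12 genes were lower (16.9%, against 11.6% of all genes) and 2 higher (2.82%, against 8.73%) at an unadjusted p under 0.05. The median difference was -0.03, with 46 of 71 estimates below 0 (64.8%, against 49.1% of all genes). Mrpl45, a protein at the exit of the tunnel that anchors the ribosome to the inner membrane, had -0.10, -0.21 and -0.21 at 28 days, against 0.08, 0.00 and -0.02 at 14 days. Its undifferentiated arrays were at 0.10, 0.11 and 0.11, close to each other and to 14-day array 1. The difference of 28 from 14 days was -0.19 (SE 0.046, limma adjusted p = 0.0359), that of 28 days from undifferentiated cells -0.28 (0.000664) and that of 14 days from undifferentiated cells -0.09 (0.204). The call between 28 and 14 days was lost without undifferentiated array 1, 2 or 3 (0.0512, 0.0538 and 0.0505), 14-day array 1, 2 or 3 (0.132, 0.0851 and 0.0592) or 28-day array 2 or 3 (0.105 and 0.102).

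Mrps10 and Mrpl13 came next, with differences of -0.20 (limma adjusted p = 0.0522) and -0.16 (0.0749) between 28 and 14 days, and were not called. The call of Mrps10 was reached without undifferentiated array 1 or 3 or 28-day array 3 (0.032, 0.0422 and 0.0459). Of the 25 genes called lower at both times, 19 had a lower estimate at 28 days than at 14 days. Arrays did not overlap in 12 genes lower and 4 higher at 28 days (13.8% and 10.7% of all genes did so). An F test over the 3 states called 38 of the 71 genes, against 39.2% of all genes.

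By place in the ribosome, genes of both subunits were called lower. Of 45 large-subunit proteins, which include Mrps30 and Mrps18a despite their names, 16 were lower (35.6%) and 4 higher (8.89%) at 14 days, and 22 were lower (48.9%) and 4 higher (8.89%) at 28 days. Of 25 small-subunit proteins, 10 were lower (40%) and 2 higher (8%) at 14 days, and 14 were lower (56%) and 2 higher (8%) at 28 days. Of all genes, 17.5% were lower and 18.2% higher at 14 days, and 19.5% were lower and 20.4% higher at 28 days. The median differences at 28 days were -0.14 for the large and -0.17 for the small subunit, against 0.02 for all genes. Of 27 proteins specific to mitochondria, 19 were lower (70.4%) and 1 higher (3.7%) at 28 days, with a median difference of -0.23. Of 43 with a bacterial counterpart, 17 were lower (39.5%) and 5 higher (11.6%), with a median of -0.11. At 14 days the counts were 12 lower (44.4%) and 2 higher (7.41%) of 27, and 14 lower (32.6%) and 4 higher (9.3%) of 43. The difference between these classes was not tested. The classes follow the published nomenclature, which puts Mrps18a and Mrps18b, both relatives of bacterial S18, among proteins specific to mitochondria.

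Functional sites of the ribosome gave mixed values. In the stalk, which recruits translation factors, Mrpl12 had -0.16, -0.07 and 0.00 at 14 days, against 0.13, 0.02 and 0.11 in undifferentiated cells, and was called lower (difference -0.17, limma adjusted p = 0.0285), but not at 28 days (-0.10, 0.168). The 14-day call was lost without undifferentiated array 1 or 3 (0.096 and 0.0802) or 14-day array 1 or 2 (0.108 and 0.0669). With its probe set of largest SD alone Mrpl12 was called lower at 28 days too (-0.20, limma adjusted p = 0.0141). Its stalk partner Mrpl10 was not called at either time (0.04 and 0.06). Mrps12, at the decoding centre, was not called (-0.09 and -0.08). Mrpl58, which can release peptides from stalled ribosomes, had differences of -0.03 at 14 days and 0.02 at 28 days with 95% intervals of -0.12 to 0.06 and -0.07 to 0.11. Mrps30, the relative of Mrpl37, was called lower at 28 days (-0.23, 0.0115) and not at 14 days (-0.06, 0.496).

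The 3 relatives of bacterial S18 had separate values. Mrps18b differed by -0.19 at 14 days (limma adjusted p = 0.034) and -0.30 at 28 days (0.00207). Its call at 14 days was lost without undifferentiated array 2 or 3 (0.124 and 0.0987) or 14-day array 1, 2 or 3 (0.0619, 0.0813 and 0.101). Mrps18a differed by -0.20 (0.0555) and -0.12 (0.233) and was not called, but at 14 days it was called without undifferentiated array 1 (0.0296) or 28-day array 1 or 3 (0.0365 and 0.018), and at 28 days without 28-day array 3 (0.0303). Mrps18c differed by -0.001 (0.99) and -0.11 (0.0777).

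Of the 71 genes, 62 rest on 1 probe set and 9 on 2, and the pairs did not always match. In Mrps5, a protein of the small subunit near the message entry in bacteria, probe set 17375911 differed by -0.43 at 28 days (adjusted p = 0.00014 over probe sets) and probe set 17391329 by 0.11 (0.362). The gene's mean was called lower (-0.18 at 14 days, 0.0101, and -0.16 at 28 days, 0.018), and at 28 days the call was lost without undifferentiated array 2 (0.0669). In Mrpl12 probe set 17259374 differed by -0.26 at 14 days (0.00404) and 17273135 by -0.08 (0.565). At 28 days these 2 probe sets differed by -0.20 (0.0144) and 0.002 (0.989). In Mrps18c 17439609 differed by -0.22 at 28 days (0.0128) and 17547990 by 0.01 (0.963). Both probe sets of Mrpl36 were higher (0.50 and 0.25 at 14 days, 2.87e-05 and 0.034) and both of Mrps18b lower at 28 days (-0.26 and -0.34, 0.00919 and 0.00117). Neither probe set of Mrpl10, Mrpl47, Mrps16 or Mrps17 was called.

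Of the 27 genes called at neither time, the 95% interval lay within 1.2-fold in either direction for 23 at 14 days and 22 at 28 days. This bound is wider than some called falls, such as that of Mrps5 at 28 days (-0.16). The median difference of the 71 genes at 28 days (-0.16) also lies inside it. Not being called thus does not show that a gene was unchanged. Intervals of Mrps18a at 14 days (-0.36 to -0.04) and Mrpl1 at 28 days (-0.24 to -0.01) excluded 0. Mrpl14, a large-subunit protein with a bacterial counterpart, had -0.06, 0.00 and 0.00 in undifferentiated cells, -0.03, -0.07 and 0.06 at 14 days and 0.01, -0.05 and 0.00 at 28 days. Its differences were 0.01 at both times, with intervals of -0.10 to 0.11 at each. Mrpl48 differed by -0.004 and -0.01. Mrps36, which is now known as a subunit of the 2-oxoglutarate dehydrogenase complex and not of the ribosome, differed by -0.04 and -0.01, with a wider interval (-0.21 to 0.12 at 14 days and -0.18 to 0.15 at 28 days). Mrps14 and Mrpl2 were the most scattered here. Undifferentiated arrays were at -0.28, 0.01 and 0.23 for Mrps14 and at -0.37, -0.18 and 0.08 for Mrpl2, which was called higher at both times without undifferentiated array 3 (0.30 and 0.29, adjusted p = 0.00526 and 0.00567).

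Mitochondrial ribosomal proteins under other names were split. Dap3, a GTP-binding protein of the small subunit, had -0.05, -0.05 and -0.14 at 28 days, against 0.19, 0.28 and 0.19 (difference -0.30, limma adjusted p = 0.000305), and differed by -0.20 at 14 days (0.00513). Ptcd3, a pentatricopeptide repeat protein of the small subunit, had 0.13, 0.10 and 0.16 at 28 days, against -0.55, -0.54 and -0.64, and was higher by 0.71 (2.04e-07). At 14 days it was higher by 0.56 (1.53e-06), more than any of the 71 genes rose. Ptcd3 rests on more than 1 probe set. Between 28 and 14 days it was not called (0.15, limma adjusted p = 0.0637). There it was called higher with its probe set of largest SD alone (0.53, 0.00165) and after quantile normalization again (0.19, 0.033). Gadd45gip1, a large-subunit protein, was not called (-0.17 and -0.20), except at 28 days without 28-day array 3 (-0.27, 0.047).

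Factors that build or use the ribosome had calls in both directions, to be read against 17.5% of all genes lower and 18.2% higher at 14 days and 19.5% and 20.4% at 28 days. Of 26 genes for assembly and ribosomal RNA modification 6 were lower (23.1%) and 3 higher (11.5%) at 14 days, and 7 were lower (26.9%) and 3 higher (11.5%) at 28 days, with shares of falls near those of all genes. Mettl15, an RNA methyltransferase of the small subunit, differed by -0.36 and -0.42, and the GTPase Gtpbp10 by -0.24 and -0.43. Mrm1, a methyltransferase of the large ribosomal RNA, was higher by 0.34 and 0.24, and its call at 28 days was lost without undifferentiated array 2 or 3 (adjusted p = 0.0999 and 0.051) or 28-day array 1 (0.106). Of 15 translation factors 4 were lower (26.7%) and 2 higher (13.3%) at 14 days, and 8 were lower (53.3%) and 2 higher (13.3%) at 28 days, with medians of -0.06 and -0.15. The elongation factor gene Gfm1 had -0.15, -0.28 and -0.22 at 28 days, against 0.33, 0.35 and 0.37 (difference -0.57, limma adjusted p = 3.58e-06). Lrpprc, which stabilises mitochondrial messages, differed by -0.21 and -0.41. Mtif3, an initiation factor, was higher by 0.24 and 0.20. Of 15 genes for mitochondrial DNA transcription and RNA processing 3 were lower (20%) and 1 higher (6.67%) at 14 days, and 5 were lower (33.3%) and 1 higher (6.67%) at 28 days, among them the nuclease genes Mgme1 (-0.60 at 28 days) and Elac2 (-0.55).

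Among 9 nuclear regulators of mitochondrial biogenesis, 4 were lower (44.4%, against 17.5% of all genes) and 1 higher at 14 days, and 5 were lower (55.6%, against 19.5%) and 1 higher at 28 days, with differences of up to 2.11 in size. Ppargc1a, a coactivator of mitochondrial genes, had 0.28, 0.39 and 0.14 at 28 days, against -1.86, -1.69 and -1.97 in undifferentiated cells (log2 difference 2.11, limma adjusted p = 7.05e-09), and was higher by 1.86 at 14 days (2.47e-08). Myc, a growth regulator that binds E-boxes, had -0.03, -0.02 and 0.00 at 28 days, against 1.69, 1.56 and 1.49 (-1.59, limma adjusted p = 5.39e-09), and differed by -1.57 at 14 days (8.91e-09). Pprc1, a relative of Ppargc1a active in growing cells, differed by -0.65 and -0.75. Gabpb1, the partner subunit of the ETS factor GABP, differed by -0.56 and -0.76, while its DNA-binding subunit gene Gabpa was not called (0.04 and -0.09). Nrf1 differed by -0.33 and -0.28, and Yy1 and Esrra were not called. How the regulators bear on the ribosomal proteins was not tested.

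**Figure D4:**
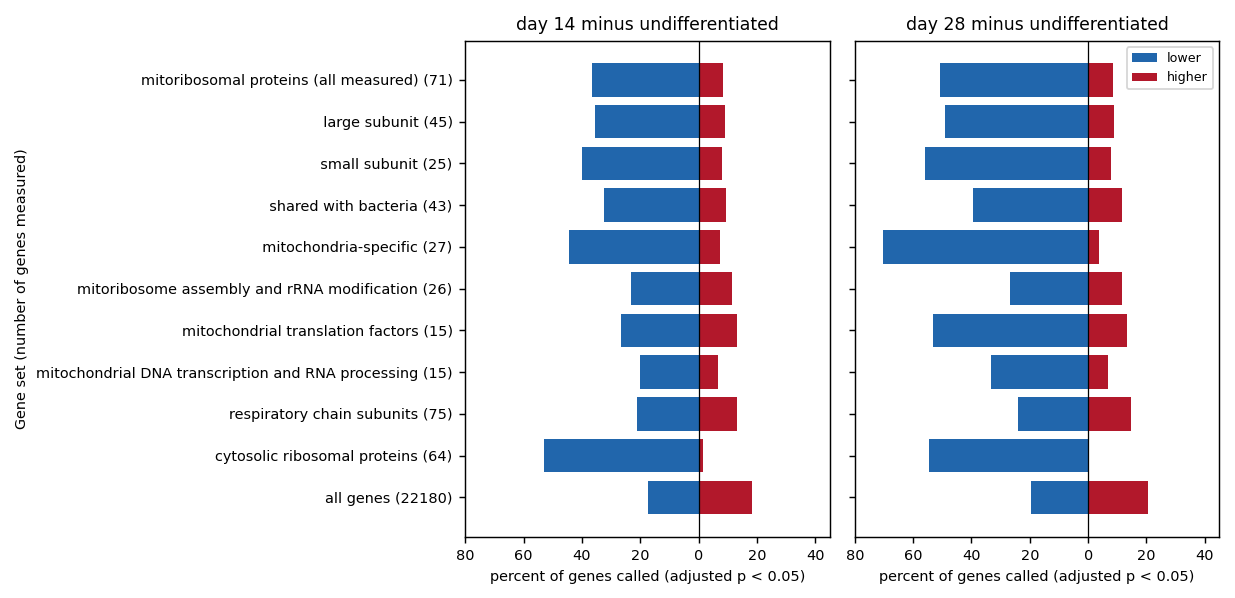
Percent of genes called lower (blue, to the left of 0) and higher (red, to the right) at 14 days (left) and 28 days (right), for the mitochondrial ribosomal proteins and their classes, related gene sets and all genes, with the number of genes in brackets. Lower calls reach 36.6% and 50.7% in the mitochondrial ribosomal proteins, 53.1% and 54.7% in the cytosolic ones and 17.5% and 19.5% in all genes.

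The proteins of the cytosolic ribosome, which translates the messages of nuclear genes, were lower as well. Of 64 measured genes 34 were lower (53.1%, against 17.5% of all genes) and 1 higher at 14 days (median -0.21), and 35 were lower (54.7%, against 19.5%) and 0 higher at 28 days (median -0.19). In limma 0 of them were higher at 28 days also at an unadjusted p under 0.05. These genes have many near-identical pseudogenes, so their probe sets may read more than the named gene. The respiratory chain and ATP synthase, whose core subunits the mitochondrial ribosome makes, had shares of calls near those of all genes in their nuclear-encoded subunits. Of 75, 16 were lower (21.3%, against 17.5% of all genes) and 10 higher (13.3%, against 18.2%) at 14 days. At 28 days 18 were lower (24%, against 19.5%) and 11 higher (14.7%, against 20.4%), and the medians at the 2 times were -0.03 and -0.001. The ATP synthase had 7 of 17 subunits lower (41.2%) and 1 higher (5.88%) at 28 days, and complex I had 6 of 32 lower (18.8%) and 7 higher (21.9%). The difference between these sets and the mitochondrial ribosomal proteins was not tested.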

How the data were processed

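Deposited log2 values of 9 arrays were used. RMA is named as their method per the submitters' processing notes, with no software or version, and the log base is taken from it. All 33794 probe sets have a median of 0 over the 9 arrays, so each was centred, by a step that the sources used here do not describe. That a higher value means more RNA is assumed. Probe sets with 1 gene (23521) were averaged per gene to 22180 genes. Probe sets with several genes (1814) or none (8459) were left out. The number of arrays limits the precision.

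The fit used limma 3.58.1 under R 4.3.3 (1 mean per group, moderated variances with 6 residual and 3.81 prior degrees of freedom), with Benjamini-Hochberg adjustment over all genes in each comparison, and was tested on simulated data. Standard errors and intervals come from the fit. The labels give no batch. The genes and gene lists were chosen with earlier results of these data known. Genes named are, per comparison, the 8 largest called rises and falls, the 3 with the smallest F, those with several probe sets, a set of structural positions, and up to 4 called genes per related list. Others named (such as Mrps22, Mrpl21, Mrps14 and Mrpl2, and the genes of a pattern with few members) were chosen after their values were seen. Large and small subunits and bacterial counterparts follow the published ribosome nomenclature. Promoters come from RefSeq, build GRCm38.p6. Alternatives covered scaling, threshold, probe sets, variance moderation, ties, the arrays fitted and each array left out.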

Additional observations from a re-analysis of the deposited data

Results flagged for a closer look

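Among the mitochondrial ribosomal proteins and the lists for their other-named members, assembly, translation factors, mitochondrial DNA and regulators, 7 genes differed between the effects of induction at 28 and at 14 days, as tested by 28 days minus 14 days in limma, and each was lower at 28 days. They were 1 of 71 (1.41%), 0 of 3, 2 of 26 (7.69%), 2 of 15 (13.3%), 1 of 15 (6.67%) and 1 of 9 (11.1%), in that order. Of all genes, 4.67% were lower and 2.72% higher in this comparison. Ptcd3 was not called in it (0.15, limma adjusted p = 0.0637), but was called higher with its probe set of largest SD alone (0.53, 0.00165). Of the 75 respiratory chain subunits, which were counted and not named, 1 was lower and 2 were higher at 28 than at 14 days, all in complex IV. Mrpl45 was lower at 28 days by 0.19 on the log2 scale (difference -0.19, adjusted p = 0.0359). The translation genes Gfm1 and Lrpprc differed by -0.20 (0.0314) and -0.20 (0.0247). The assembly and ribosomal RNA modification genes Gtpbp10 and Rpusd4 differed by -0.18 (0.0313) and -0.23 (0.0438). The nuclease gene Mgme1 differed by -0.25 (0.0398) and the regulator Gabpb1 by -0.21 (0.0366). Each of these calls was lost without some single arrays. That of Mrpl45 was lost without any array but 28-day array 1 (0.0505 to 0.132). Those of Gfm1 and Lrpprc were lost without 14-day array 1 or 2 or 28-day array 2 or 3 (0.0692 to 0.119), and that of Lrpprc also without 14-day array 3 (0.0797). That of Gtpbp10 was lost without any 14-day array or 28-day array 1 or 2 (0.0865 to 0.096), and that of Rpusd4 without undifferentiated array 1, any 14-day array or 28-day array 2 or 3 (0.0564 to 0.131). That of Mgme1 was lost without any array but 28-day array 3 (0.0549 to 0.128). That of Gabpb1 was lost without undifferentiated array 2 or 3, any 14-day array or 28-day array 1 or 3 (0.051 to 0.129).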

How the results depend on the processing

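Results were recomputed under 18 alternatives, of which the fit restricted to genes with 1 probe set gives no value for a gene with several. None of the 106 calls of genes named in the text reversed. Of these, 51 stayed past the threshold in every alternative that gave them a value, other than the stricter threshold and the test against a 1.5-fold change, and 50 were lost after quantile normalization again. Among those 50 were, at both times, the calls of Mrpl23, Mrpl24, Mrpl32, Mrpl34, Mrpl54, Mrpl57, Mrps5, Mrps7, Mrps11 and Mrps25. At 14 days alone those of Mrpl12, Mrpl37, Mrps10, Mrps18b, Mrps22, Mrps27 and Mrps34 were lost. At 28 days alone those of Mrpl3, Mrpl18, Mrpl19, Mrpl46, Mrpl51, Mrps9, Mrps23, Mrps24, Mrps26, Mrps30 and Mrps35 were lost. That setting called 7 genes lower and 2 higher at 14 days (5200 over the whole table). It called 17 lower and 2 higher at 28 days (5662), and 2 lower between 28 and 14 days. The share of all genes in that last comparison is not given, so its count has no background. The test against a 1.5-fold change called 0 lower and 0 higher at 14 days (1582 over the table), 1 lower and 0 higher at 28 days (2010), and 0 between 28 and 14 days (28). By construction it asks for larger changes, and no further gene of the set passed it at an unadjusted p under 0.05. At an adjusted p under 0.01, 14 were lower and 2 higher at 14 days (13.9% and 14.8% of all genes), 26 were lower and 3 higher at 28 days (16.3% and 16%), and 0 were lower between 28 and 14 days (813 over the table). The median at 28 days was -0.19 both with the probe set of largest SD (-0.186) and with genes of 1 probe set (-0.189), against -0.16.

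Leaving out each array in turn gave 17 (without 14-day array 3) to 27 genes lower and 4 to 7 higher at 14 days, 30 to 36 lower and 3 (without 28-day array 3) to 8 higher at 28 days, and 0 to 1 lower between 28 and 14 days, where 991 (without 14-day array 1) to 1573 genes were called over the table (1017 without 14-day array 2). Of all genes, 15.5% to 17.6% were then lower and 16.5% to 18.2% higher at 14 days. At 28 days 18.4% to 19.2% of all genes were lower and 18.5% to 19.9% higher. The labels do not say whether replicate numbers pair samples, and the main fit used no pairing. Deviations from group means had correlations of -0.14 to 0.07 between same-numbered arrays and -0.12 to 0.145 between differently numbered ones. With 3 arrays per group this does not settle whether they are paired. With the replicate block 24 genes were lower and 5 higher at 14 days, 36 lower and 6 higher at 28 days and 1 lower between 28 and 14 days, and the 14-day calls of Mrpl32 (adjusted p = 0.0803) and Mrps34 (0.0612) and the calls of Gtpbp10 (0.0559), Rpusd4 (0.061), Gfm1 (0.0546) and Gabpb1 (0.0669) between 28 and 14 days were lost, while Mrps18a (-0.20, 0.0377) and Mrps26 (-0.20, 0.013) were called lower at 14 days. With the block 17.3% of all genes were lower and 18.1% higher at 14 days, and 19.2% and 20.1% at 28 days. The share of all genes between 28 and 14 days is not given for the block, so the count there has no background. The causes of the shifts between settings were not tested. The 3 arrays per group limit what can be told of differences near the threshold.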
